A study of Homo sapiens with 18 samples.

Results

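The p53 target genes examined here were 32 genes that p53 is known to switch on, chosen by symbol. All 32 were found among the 29240 gene symbols that both deposited count tables share. Their RNA was followed in MDA-MB-436 cells, a breast cancer line of the triple-negative type, in which SMARCAL1 had been disrupted or depleted. SMARCAL1 is an annealing helicase that remodels stalled DNA replication forks. The data comprised 18 libraries in 8 groups. In the TruSeq assay, a sequencing of stranded total RNA, SMARCAL1 knockout clone 1 was set against a control (3 libraries each). In PLATE-seq, a pooled plate assay of polyadenylated RNA, SMARCAL1 knockout clones 1, 2 and 3 were set against a control and siRNA SMARCAL1 against an siRNA control (2 libraries each). No group was labelled with a drug, and no time point was given. Each knockout group was 1 clonal line, so differences between clones and effects of the knockout cannot be told apart where 1 clone was measured. The labels call the libraries biological replicates but do not say that they came from separate cultures, so p-values measure the spread between these libraries. The cell line labels of the PLATE-seq libraries count upward from MDA-MB-437, with MDA-MB-448 as the last, while their titles say MDA-MB-436, and the titles were followed.

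p53 is a transcription factor that is held at low levels by MDM2, a ubiquitin ligase that p53 itself induces. DNA damage and replication stress stabilise it. It then binds a response element made of a pair of half-sites and induces genes that arrest the cell cycle, trigger cell death, repair DNA or change metabolism. Many of these genes also have other activators, so their RNA can change for other reasons. MDA-MB-436 is a p53-mutant line, and the protein, binding and activity of p53 were not measured in these data. The members were grouped by role, into 6 genes of cell cycle arrest, 4 of feedback and RNA regulation, 9 of mitochondrial apoptosis and survival, 3 death receptors, 4 of DNA repair and nucleotide supply, and 6 of metabolism and redox.

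p53 recognises its targets through half-sites, so the half-site was searched in windows from 250 bases before to 50 bases after each RefSeq start (GRCh38.p14). The search used the p53 half-site consensus, which reads the same on both strands. A window was available for 25 members. Of these, 8 (32%) held at least 1 half-site, against 8.06% of all 27305 genes with a window. The 8 were ABHD4, AEN, DDB2, FAS, FDXR, PLK2, RPS27L and SESN1. Genes with several windows have more places for a match, and by window the shares were 21.6% for the members and 6.63% for all. The members were chosen as known p53 targets, so a higher share may follow from that choice and is given as a description. DDB2 was the member with a pair of half-sites at most 13 bases apart, which 10 genes (0.0366%) held in all. CDKN1A and MDM2 had no match in the window, which says only that these letters are not there. The stretches below belong to the members whose levels are given in every library further on, with the half-sites in capitals. Distances are from the RefSeq start of the window that held the half-site, and some members had more than 1 window. In FAS that window was 88991181 to 88991480, inside the gene, which begins at 88990582. The half-sites printed for DDB2, FDXR, PLK2 and ABHD4 also lay inside the gene by its GENCODE coordinates. In the direction of transcription these genes begin at 47214465, 74873031, 58460260 and 22598237. A distance before the RefSeq start therefore does not place a half-site outside its gene. The FAS windows at 88990548 to 88990847 and 88990664 to 88990963 held 0 half-sites. In DDB2 the pair lay in the window at 47214724 to 47215023, and the one at 47214204 to 47214503 held 0.
DDB2, plus strand, chr11:47214939-47215003, with a pair of half-sites 1 base apart: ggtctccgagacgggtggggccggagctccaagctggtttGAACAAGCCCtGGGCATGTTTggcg
FAS, plus strand, chr10:88991269-88991338, half-site 122 bases before the start: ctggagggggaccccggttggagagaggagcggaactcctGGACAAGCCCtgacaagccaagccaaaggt
FDXR, minus strand, chr17:74872976-74873045, half-site 11 bases before the start: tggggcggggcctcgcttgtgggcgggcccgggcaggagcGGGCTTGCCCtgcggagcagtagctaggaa
PLK2, minus strand, chr5:58460189-58460258, half-site 132 bases before the start: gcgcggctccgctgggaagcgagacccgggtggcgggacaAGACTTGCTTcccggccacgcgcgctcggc
ABHD4, plus strand, chr14:22598254-22598323, half-site 6 bases before the start: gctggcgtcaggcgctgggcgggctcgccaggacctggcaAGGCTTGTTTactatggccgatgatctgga

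Library totals were 10257584 to 19270648 counts in TruSeq and 807861 to 3068887 counts in PLATE-seq. Levels are given as CPM, counts scaled to library size, with library sizes adjusted by TMM. The PLATE-seq totals were highest in clone 3 (2411594 and 3068887) and lowest in the control (890402 and 807861). SMARCAL1 stood at 13.35, 14.74 and 13.97 CPM in TruSeq knockout libraries, against 13.91, 14.05 and 16.07 CPM in control libraries. In PLATE-seq it had 1.78 and 3.28 CPM in clone 1, 8.32 and 3.07 CPM in clone 2, 7.11 and 13.4 CPM in clone 3, and 0 and 3.72 CPM in the control, and no clone passed the test. It had 0 counts in both siRNA SMARCAL1 libraries, against 6.14 and 5.62 CPM in siRNA control libraries. That difference rested on 15 counts in the siRNA control and did not pass (log2 change -6.14, SE 2.12, edgeR adjusted p = 0.573). How the gene was disrupted is not given in the sources used here, so its transcript level does not check the genotype. The 4 mesenchymal markers VIM, CD44, AXL and CAV1 summed to 2109 to 2461 CPM in TruSeq knockout libraries and 2107 to 2438 CPM in control libraries. CAV1 was past the threshold, with 396.8 to 441.2 CPM in the knockout and 302.6 to 312.3 CPM in the control (log2 change 0.46, edgeR adjusted p = 0.00643). In PLATE-seq the 4 summed to 782.5 to 1128 CPM in clone 1, 1212 to 1234 CPM in clone 2, 649.6 to 1115 CPM in clone 3 and 836.1 to 875.7 CPM in the control, and to 590.7 to 624.8 CPM with siRNA SMARCAL1 and 739.9 to 762.2 CPM in the siRNA control. In TruSeq, ESR1 and PGR were below 1 CPM in every library. Of the other luminal markers, FOXA1 had 1.99 to 2.73 CPM in the knockout and 2.30 to 3.39 CPM in the control. GATA3 had 0.066 to 1.02 CPM in the knockout and 0.22 to 0.77 CPM in the control. The 4 endothelial markers PECAM1, CDH5, VWF and KDR summed to 2.03 to 9.36 CPM in TruSeq knockout libraries and 3.74 to 9.56 CPM in control libraries. Of the leukocyte markers in TruSeq, CD14 had 5.56, 6.67 and 11.3 CPM in the knockout, against 11.5, 12.75 and 18.2 CPM in the control. PTPRC had 0.29 to 2.69 CPM in the knockout and 0.33 to 1.963 CPM in the control, and CD3E had 0 to 6 counts in each TruSeq library. The part of these in the results was not tested. The TruSeq libraries fell on 2 sides by the number of detected features, with 36042 or more in knockout replicate 1 and control replicates 1 and 2, and 30653 or fewer in the others. Values within a side compare 1 library with 2, so only effect sizes are given, beside the members whose call or direction they touch. They are either the change fitted by edgeR within the side or, where so named, the log2 ratio of mean CPM.

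In total RNA of knockout clone 1, CDKN1A rose and GADD45A fell, and none of the other members tested passed. Both encode brakes on the cell cycle. The hallmark p53 targets MDM2, BBC3 and BAX had log2 changes of -0.02, 0.07 and 0.12, and none of them kept 1 direction in both sets of libraries split by detected features. Passing means an adjusted p under 0.05 in edgeR's quasi-likelihood test, adjusted by Benjamini-Hochberg over the 17371 genes tested. Of the 32 members 31 were tested, and EDA2R was below the filter on low counts. The 2 members past the threshold, 1 higher and 1 lower, compare with 6.27% of all genes, 3.96% higher and 2.31% lower, a share near that of the members. At an unadjusted p under 0.05 there were 10 of 31 members, against 20.4% of all genes. The median log2 change was 0.04 over the members and -0.0044 over all genes tested, with 17 members above 0 and 14 below. The knockout and control libraries did not overlap for 14 of 31 members, 8 above and 6 below, against 26.3% of all genes (13.6% above and 12.7% below). With the side in detected features as a term, 8 members passed, and 3793 of all genes did, against 1089 without it. The 6 members added were PLK3, PMAIP1, AEN, TNFRSF10B, DDB2 and FDXR, with edgeR adjusted p of 7.37e-06 to 0.0412.

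**Figure D1:**
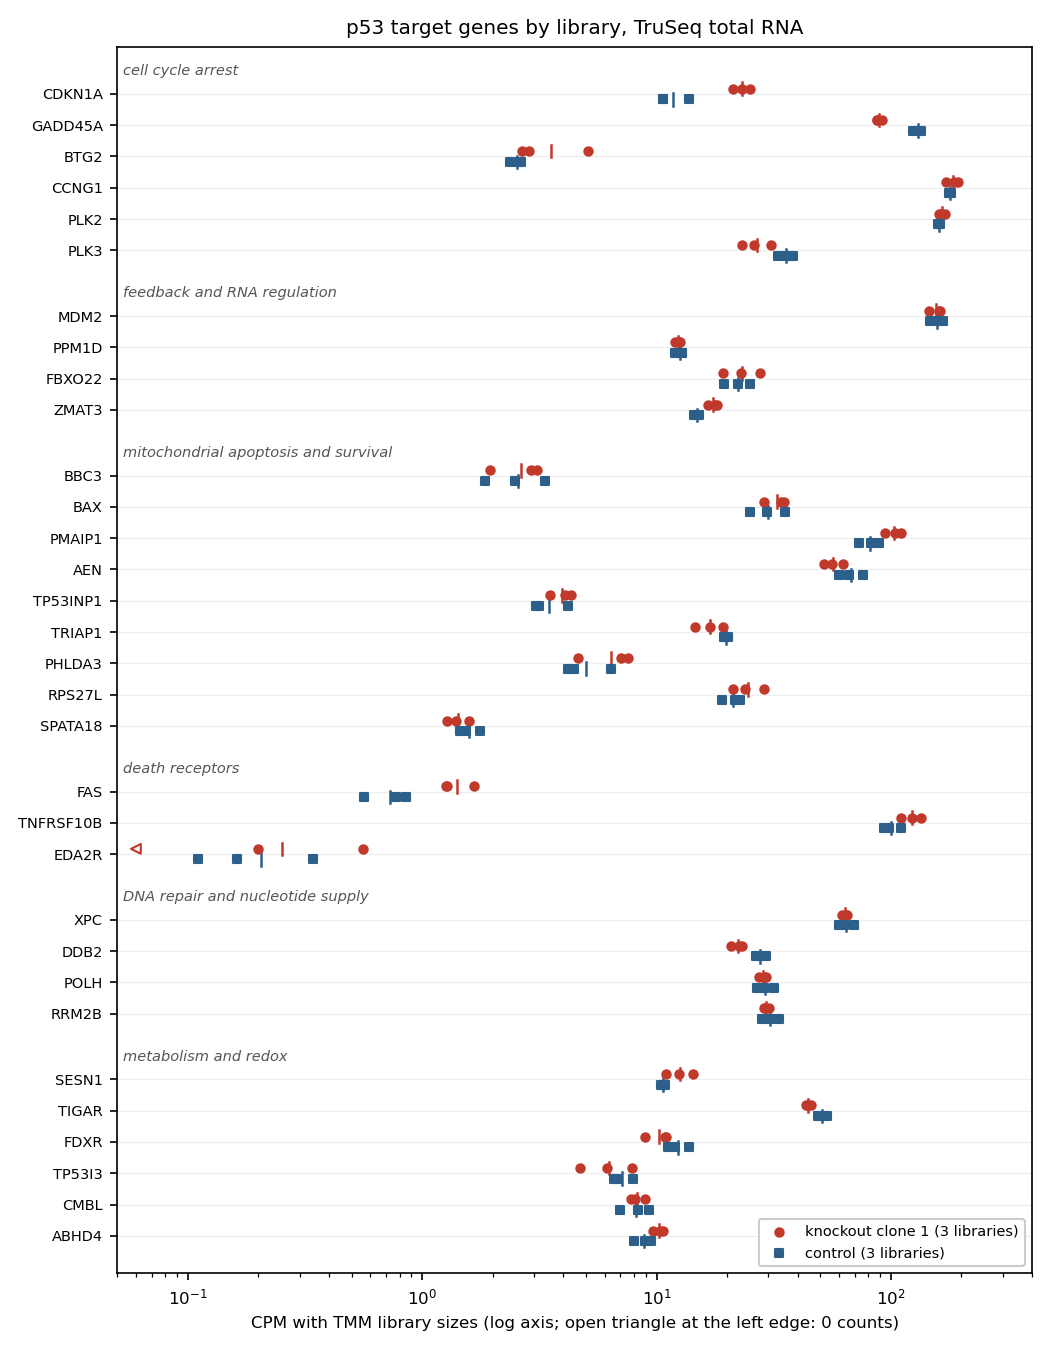
Levels of the 32 p53 target genes in each TruSeq library, in CPM on a log axis, grouped by role, with knockout clone 1 as circles above control as squares and the group means as vertical lines. CDKN1A (21.1 to 25.0 CPM in the knockout, 10.7 to 13.8 CPM in the control) and GADD45A (87.1 to 92.0 CPM against 124 to 134 CPM) stand apart by group, while most other members lie closer or overlap.

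Among the genes of cell cycle arrest, CDKN1A (ENSG00000124762.13, chromosome 6, 36676460 to 36687339, plus strand, GRCh38) encodes p21, the inhibitor of cyclin-dependent kinases. It stood at 21.1, 23.2 and 25.0 CPM in knockout libraries, against 10.7, 10.7 and 13.8 CPM in control libraries. Every knockout library lay above every control library. The mean was 23.1 ± 1.91 CPM (SD, n = 3) for the knockout and 11.7 ± 1.79 CPM (n = 3) for the control, a log2 fold change of 0.97 (SE 0.13, edgeR adjusted p = 0.00464). In bulk RNA a larger share of cells with CDKN1A and more CDKN1A per cell cannot be told apart. The change was 0.98 among the libraries with more detected features and 0.80 among those with fewer. Without control replicate 2 the change was 0.91 and the call was lost (adjusted p = 0.052). The antisense gene DINOL, which overlaps exons of CDKN1A, had 0 counts in 5 of the 6 libraries.

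GADD45A (ENSG00000116717.12, chromosome 1, 67685061 to 67688338, plus strand) encodes a stress sensor that slows entry into mitosis and takes part in DNA repair. It moved opposite to CDKN1A. It had 87.1, 92.0 and 87.1 CPM in knockout libraries, against 133.4, 133.8 and 124.5 CPM in control libraries, with no overlap. The log2 fold change was -0.56 (SE 0.066, edgeR adjusted p = 0.0027). It was -0.63 among the libraries with more detected features and -0.48 among those with fewer, and the call was kept when each library was left out in turn.

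The other arrest genes did not pass. PLK3, a stress-responsive kinase, had 23.2, 26.1 and 30.85 CPM in knockout libraries, against 32.9, 36.2 and 38.2 CPM in control libraries. The groups did not overlap, but the log2 change of -0.42 (SE 0.12) had an adjusted p of 0.0728. It was -0.59 among the libraries with more detected features and -0.43 among those with fewer. PLK2, a related kinase, had 159.8, 163.5 and 170.4 CPM in the knockout, against 158.1, 161.5 and 160.3 CPM in the control, a log2 change of 0.04 (SE 0.060). BTG2, an antiproliferative factor, had a log2 change of 0.46 (SE 0.29) that rested on knockout replicate 1, at 5.10 CPM against 2.67 and 2.85 CPM in the other knockout libraries. CCNG1, which encodes cyclin G1 and is a classic p53 target, had a log2 change of 0.04 (SE 0.065).

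Feedback genes were close to the control. MDM2 (ENSG00000135679.23, chromosome 12, 68808176 to 68850686, plus strand), the ubiquitin ligase of p53, had 162.5, 160.6 and 144.7 CPM in knockout libraries, against 166.9, 146.6 and 159.7 CPM in control libraries. The libraries interleaved, and the log2 change was -0.02 (SE 0.077, adjusted p = 0.936). The log2 ratio of mean CPM was 0.052 among the libraries with more detected features and -0.066 among those with fewer. PPM1D, the phosphatase WIP1 that ends p53 signalling, had a log2 change of -0.03 (SE 0.10). FBXO22, an F-box protein, had 27.5, 19.3 and 22.9 CPM in the knockout and 25.1, 22.3 and 19.3 CPM in the control, a log2 change of 0.06 (SE 0.15). ZMAT3, an RNA-binding splicing regulator, had 17.7, 18.2 and 16.6 CPM in the knockout, against 15.1, 14.9 and 14.5 CPM in the control. Its groups did not overlap, but the log2 change of 0.24 (SE 0.094) had an adjusted p of 0.194.

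None of the 9 genes of mitochondrial apoptosis and survival passed. BBC3, which encodes the BH3-only killer PUMA, had 1.95, 3.08 and 2.91 CPM in knockout libraries, against 3.33, 1.86 and 2.48 CPM in control libraries (log2 change 0.07, SE 0.29). BAX, the pore-forming effector, had 28.8, 34.9 and 33.9 CPM in the knockout, against 25.0, 29.5 and 35.5 CPM in the control (log2 change 0.12, SE 0.13). For both genes the groups overlapped. The log2 ratio of mean CPM turned between the sides in detected features, from the one with more to the one with fewer, at -0.41 and 0.27 for BBC3 and 0.080 and -0.043 for BAX. PMAIP1, which encodes the BH3-only protein NOXA, had 110.7, 94.5 and 104.6 CPM in the knockout, against 88.9, 82.3 and 73.0 CPM in the control. Its groups did not overlap, and the log2 change of 0.34 (SE 0.094) had an adjusted p of 0.0704. It passed in DESeq2 (adjusted p = 0.0295). Its change was 0.36 among the libraries with more detected features and 0.44 among those with fewer. Of the remaining genes, the AKT inhibitor PHLDA3 had a fitted log2 change of 0.36, RPS27L of 0.21 and TP53INP1, a promoter of cell death, of 0.20. The nuclease AEN was at -0.25, the survival factor TRIAP1 at -0.22 and SPATA18, which acts in mitochondrial quality control, at -0.18. Their adjusted p lay between 0.231 and 0.803. The log2 ratio of mean CPM of AEN was -0.28 among the libraries with more detected features and -0.36 among those with fewer.

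Both death receptors tested lay above the control without passing. FAS (ENSG00000026103.21, chromosome 10, 88990582 to 89015785, plus strand), the receptor of FAS ligand, was scarce. It had 1.67, 1.28 and 1.26 CPM in knockout libraries, against 0.853, 0.565 and 0.771 CPM in control libraries. The groups did not overlap, and the log2 change of 0.92 was close in size to that of CDKN1A but with a larger error (SE 0.37, adjusted p = 0.206). The log2 ratio of its mean CPM was 1.23 among the libraries with more detected features and 0.72 among those with fewer. TNFRSF10B, which encodes the TRAIL receptor DR5, had 110.3, 134.3 and 123.4 CPM in the knockout, against 93.0, 98.5 and 110.1 CPM in the control (log2 change 0.29, SE 0.094, adjusted p = 0.121), and its ratio was 0.20 and 0.23 in the same order. EDA2R, a receptor of ectodysplasin A2, had 0.556, 0 and 0.199 CPM in the knockout and 0.341, 0.161 and 0.110 CPM in the control, too low for the test.

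The 4 genes of DNA repair and nucleotide supply all had fitted changes below 0, and none passed. DDB2 (ENSG00000134574.11, chromosome 11, 47214465 to 47239240, plus strand), which detects ultraviolet lesions and whose paired half-sites are printed above, had 20.9, 22.5 and 23.2 CPM in knockout libraries, against 27.5, 29.3 and 26.5 CPM in control libraries. Every knockout library lay below every control library, and the log2 change of -0.32 (SE 0.088) had an adjusted p of 0.0723. The log2 ratio of mean CPM was -0.44 among the libraries with more detected features and -0.21 among those with fewer. XPC, the damage sensor of global nucleotide excision repair, had 62.1, 64.5 and 65.0 CPM in the knockout, against 63.2, 69.6 and 59.8 CPM in the control (log2 change -0.01, SE 0.078). POLH, a translesion polymerase, and RRM2B, a ribonucleotide reductase subunit, had log2 changes of -0.03 and -0.06.

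Genes of metabolism and redox divided evenly around 0, with 3 above and 3 below, and none passed. FDXR, ferredoxin reductase of mitochondria, had 8.90, 10.9 and 10.9 CPM in knockout libraries, against 11.18, 12.03 and 13.76 CPM in control libraries, without overlap (log2 change -0.26, SE 0.13, adjusted p = 0.313). ABHD4, a lipid hydrolase, had 10.7, 9.69 and 10.4 CPM in the knockout, against 8.96, 9.44 and 8.04 CPM in the control (log2 change 0.22, SE 0.12, adjusted p = 0.357). SESN1, which restrains mTORC1, had a log2 change of 0.24, TIGAR, a regulator of glycolysis, of -0.19 and TP53I3, a quinone oxidoreductase, of -0.17. CMBL, a hydrolase, was at 0.0023.

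**Figure D2:**
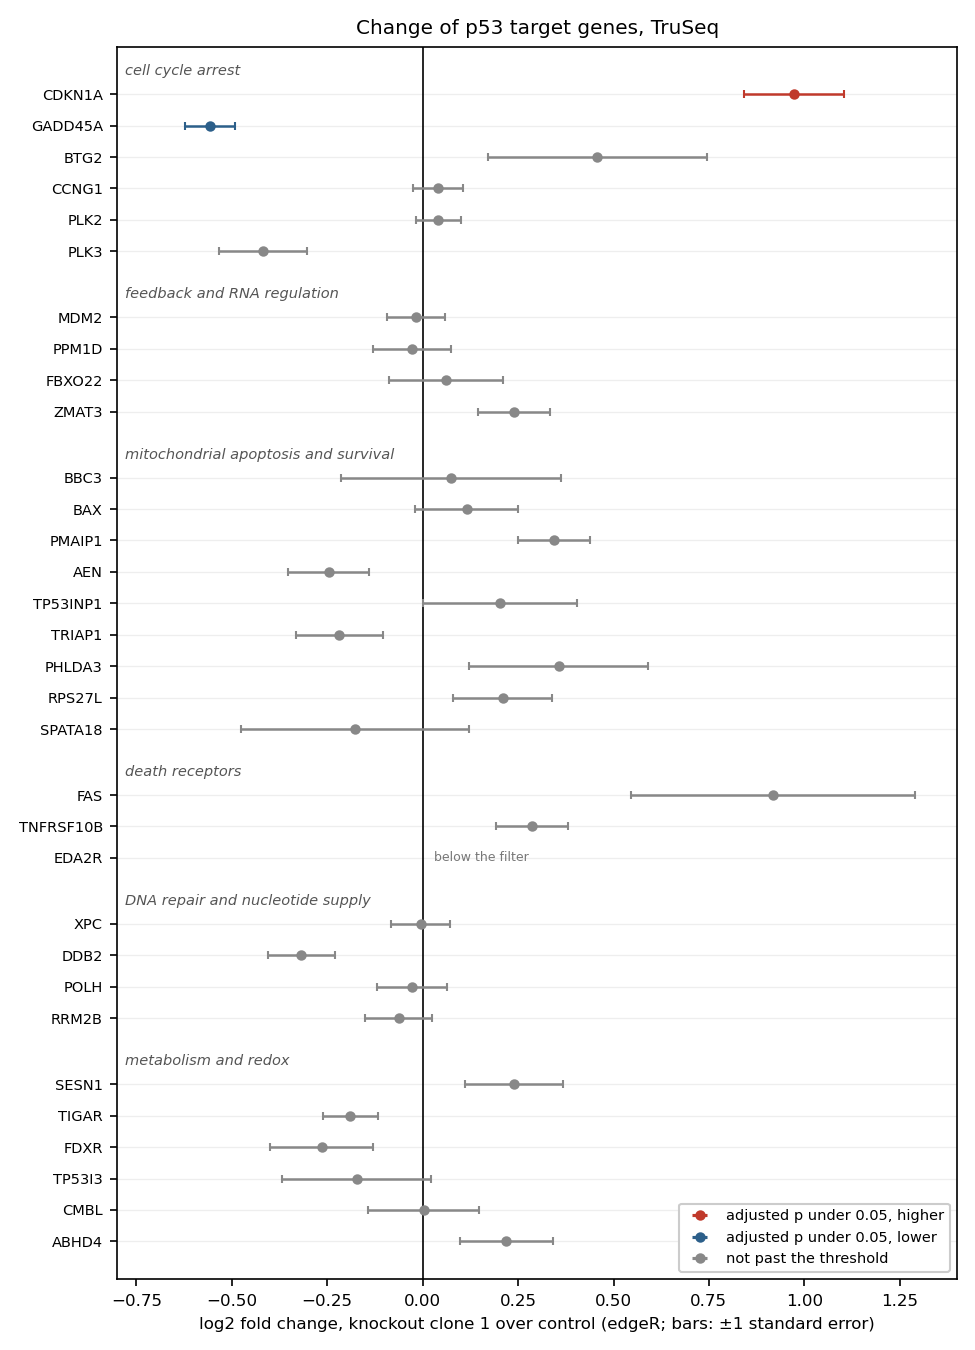
Fitted log2 fold changes of the p53 target genes in knockout clone 1 over control, TruSeq, with bars of 1 standard error on each side, grouped by role. CDKN1A (0.97) is the coloured point above 0 and GADD45A (-0.56) the one below it, and FAS (0.92) has a wide bar.

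Levels were also compared between members, per kilobase of exon, in the TruSeq libraries. GADD45A was 3rd in the knockout, at 42.9 ± 1.39 CPM per kb, and first in the control, at 63.1 ± 2.56 CPM per kb (SD, n = 3 each). CCNG1 was first in the knockout, at 59.4 ± 3.41 CPM per kb, and stood at 57.8 ± 0.533 CPM per kb in the control. CDKN1A was the 14th of 32 in the knockout, at 7.57 ± 0.627 CPM per kb, and the 16th in the control, at 3.83 ± 0.587 CPM per kb. The lowest members, EDA2R, SPATA18 and FAS, were below 0.4 CPM per kb in both groups. Exons of 14 members overlap those of another gene, 13 of them on the other strand. The strand setting of the counting is not given in the sources used here, so reads of such neighbours cannot be told apart.

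PLATE-seq carried fewer counts, and 21 of the 32 members passed its filter, among 8595 genes tested. The 11 others had 2 to 59 counts summed over the 12 libraries. They were FAS (59), RRM2B (41), PPM1D (36), PHLDA3 (35), BAX (20), BBC3 (17), SESN1 (16), TP53INP1 (10), SPATA18 (4), BTG2 (2) and EDA2R (2). BAX was seen in 3 libraries, at 3.95 CPM in clone 3, 4.42 CPM in the control and 2.11 CPM in the siRNA control, with 0 counts in the other 9. BBC3 was seen in 4 libraries, at 2.73 CPM in clone 1, 3.04 CPM in clone 3, 1.11 CPM in the control and 0.702 CPM in the siRNA control. FAS lay between 1.04 and 6.32 CPM over the 12 libraries. A count of 0 allows up to 0.978 to 3.71 CPM in these libraries, a floor of 3 counts that covers counting error only. Changes of these members were not detectable at this depth.

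No member passed in clone 1, 2 or 3 or in the mean of the clones against the control, and none passed for siRNA. Among all genes, 0% passed in clone 1, 0.0349% in clone 2, 0.663% in clone 3, 0.198% for the mean of the clones and 0% for siRNA. At an unadjusted p under 0.05 there were 3 of 21 members in clone 1, 4 in clone 2, 2 in clone 3, 3 for the mean and 1 for siRNA. The same share of all genes was 8.19%, 9.66%, 11.9%, 10.1% and 6.33%. No member passed in DESeq2 either in these comparisons. The 3 clones share 1 pair of control libraries, so their changes are given side by side.

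CDKN1A stood above the control in clones 1 and 2 and close to it in clone 3. It had 112.3 and 89.6 CPM in clone 1, 100.9 and 159.8 CPM in clone 2, 58.7 and 54.7 CPM in clone 3, and 33.2 and 70.7 CPM in the control. Both libraries of clones 1 and 2 lay above both control libraries, while those of clone 3 lay between them. The log2 changes were 0.96 (SE 0.39, adjusted p = 0.497) in clone 1, 1.33 (SE 0.40, adjusted p = 0.233) in clone 2 and 0.13 (SE 0.39, adjusted p = 0.946) in clone 3, and the difference among the clones did not pass (adjusted p = 0.256). With siRNA it had 66.0 and 132.5 CPM, against 53.5 and 69.5 CPM in the siRNA control, and the groups overlapped (log2 change 0.68, SE 0.38, adjusted p = 0.837). In clone 1 the fitted log2 change was 0.97 in TruSeq and 0.96 in PLATE-seq, where it was not past the threshold.

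GADD45A was the member that differed among the clones. It had 31.5 and 36.6 CPM in clone 1, 54.1 and 143.4 CPM in clone 2, 36.4 and 20.3 CPM in clone 3, and 43.1 and 53.3 CPM in the control. Both libraries of clone 2 lay above the control and both libraries of clones 1 and 3 below it. The log2 changes against the control were -0.50 (SE 0.44) in clone 1, 1.04 (SE 0.43) in clone 2 and -0.77 (SE 0.44) in clone 3, with adjusted p of 0.835, 0.42 and 0.505. The F test of the difference among the clones had an adjusted p of 0.0432, 1 of 21 members against 0.71% of all genes. That call rested on clone 2 replicate 2, without which the adjusted p was 0.697. It was also lost without clone 3 replicate 2 (0.213), clone 1 replicate 1 (0.0748) or clone 1 replicate 2 (0.0646). With siRNA, GADD45A had 40.2 and 32.6 CPM, against 46.5 and 56.2 CPM in the siRNA control. Both siRNA SMARCAL1 libraries lay below, with a log2 change of -0.49 (SE 0.43, adjusted p = 0.921).

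**Figure D3:**
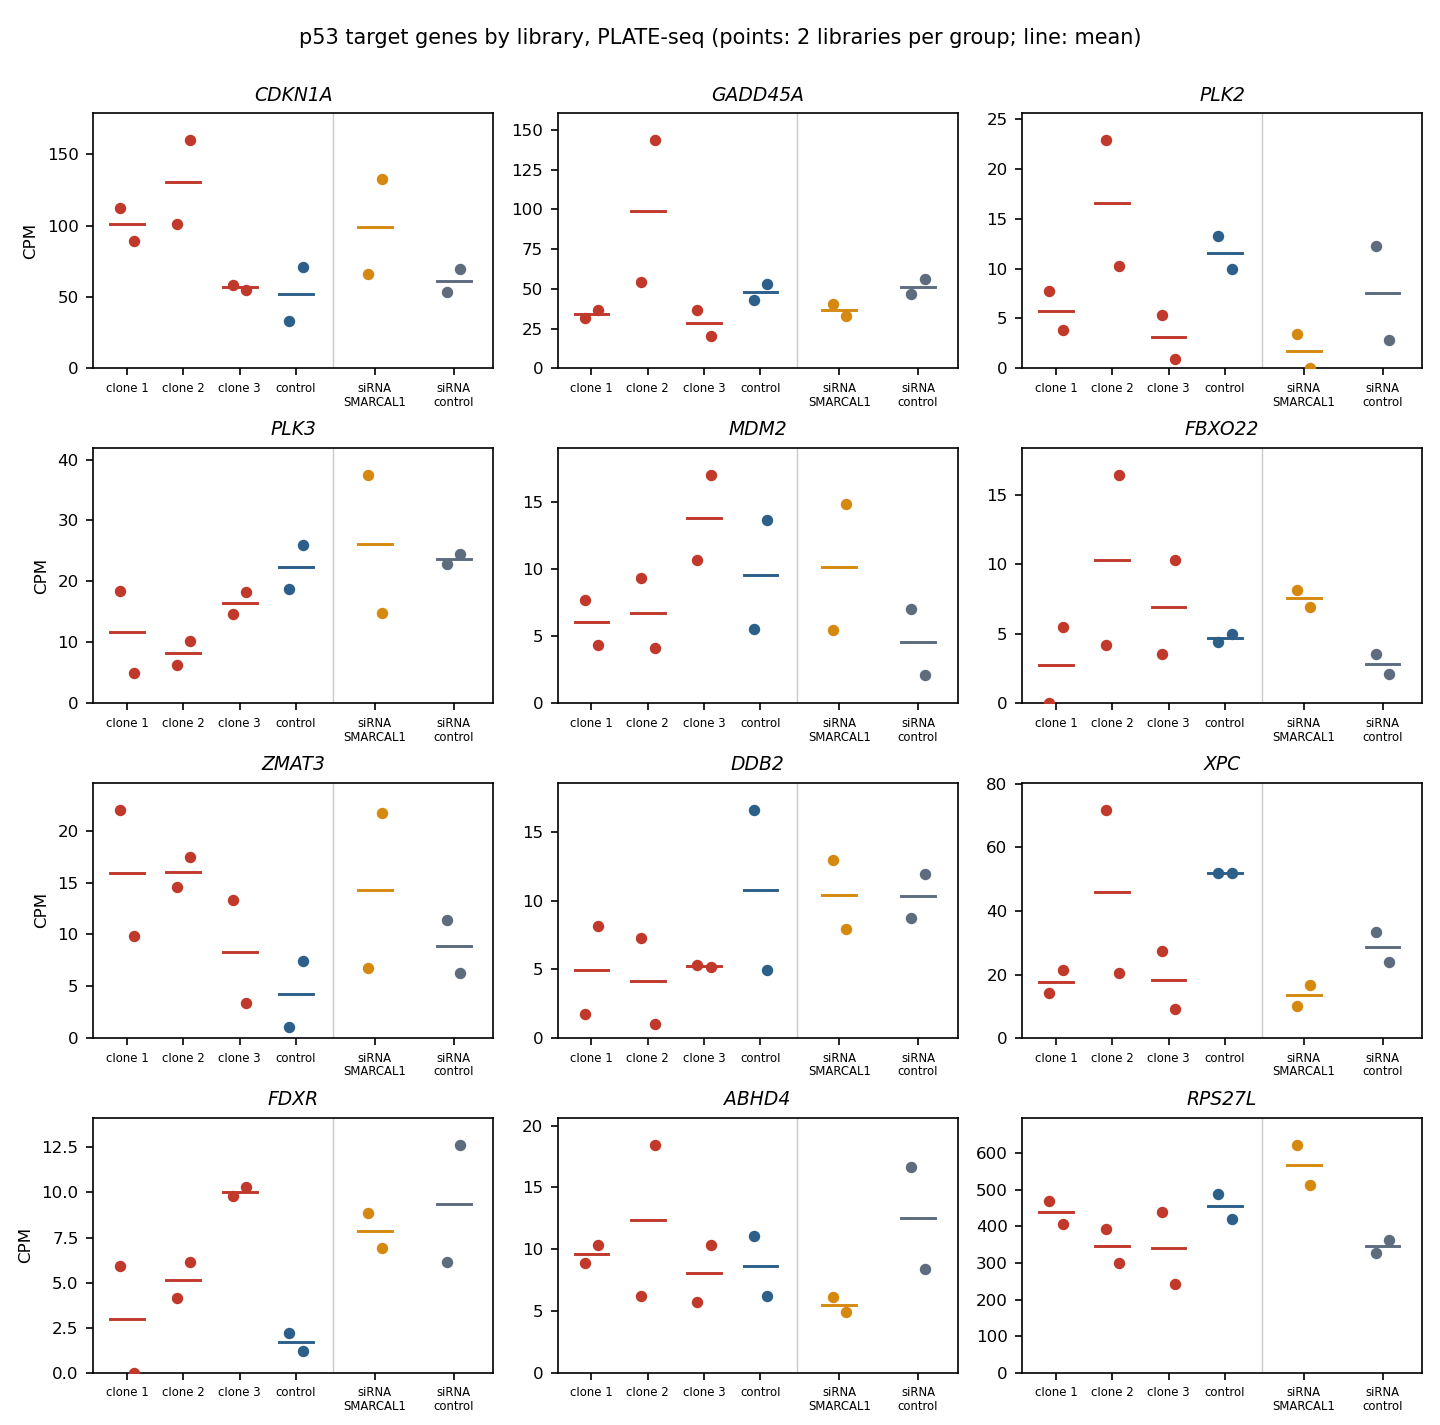
Levels of 12 p53 target genes in each PLATE-seq library, in CPM from 0, with the 3 knockout clones left of the control and siRNA SMARCAL1 left of the siRNA control. Points are libraries and lines are means. GADD45A in clone 2 (54.1 and 143.4 CPM) and CDKN1A in clones 1 and 2 stand above the control, and the 2 libraries of a group often lie far apart.

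The kinases PLK2 and PLK3 had low counts in PLATE-seq. PLK2 had 7.73 and 3.82 CPM in clone 1, 22.9 and 10.3 CPM in clone 2, 5.33 and 0.911 CPM in clone 3, and 13.3 and 9.92 CPM in the control. With siRNA it had 3.40 CPM and 0 counts, against 12.3 and 2.81 CPM in the siRNA control. Its log2 change of -1.92 for siRNA was the lowest among the members, but the error was large (SE 1.204, adjusted p = 0.859) and the groups overlapped. PLK3 had 18.4 and 4.92 CPM in clone 1, 6.24 and 10.3 CPM in clone 2, 14.7 and 18.2 CPM in clone 3, and 18.8 and 26.1 CPM in the control. All 6 knockout libraries lay below both control libraries, the direction seen in TruSeq, but the mean log2 change of -0.94 (SE 0.51) had an adjusted p of 0.554. With siRNA, PLK3 had 37.4 and 14.8 CPM, on both sides of the 22.8 and 24.6 CPM of the siRNA control.

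Among feedback genes, MDM2 had 7.73 and 4.37 CPM in clone 1, 9.36 and 4.10 CPM in clone 2, 10.7 and 17.0 CPM in clone 3, and 5.53 and 13.6 CPM in the control (mean log2 change -0.20, SE 0.72, adjusted p = 0.952). With siRNA it had 5.44 and 14.8 CPM, against 7.01 and 2.11 CPM in the siRNA control. In neither comparison did the libraries separate by group. ZMAT3 had 21.99 and 9.83 CPM in clone 1, 14.6 and 17.4 CPM in clone 2, 13.3 and 3.34 CPM in clone 3, and 1.11 and 7.44 CPM in the control. It had the highest mean change among the members, a log2 change of 1.59 (SE 0.83, adjusted p = 0.537). With siRNA, ZMAT3 had 6.81 and 21.8 CPM, against 11.4 and 6.32 CPM in the siRNA control, and the groups overlapped. FBXO22 had 0 counts and 5.46 CPM in clone 1, 4.16 and 16.4 CPM in clone 2, 3.56 and 10.3 CPM in clone 3, and 4.42 and 4.96 CPM in the control. With siRNA it had 8.17 and 6.92 CPM, both above the 3.51 and 2.11 CPM of the siRNA control (log2 change 1.42, SE 1.23, adjusted p = 0.913).

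Among repair genes, XPC had 14.3 and 21.3 CPM in clone 1, 71.8 and 20.5 CPM in clone 2, 27.6 and 9.11 CPM in clone 3, and 52.0 and 52.1 CPM in the control. Clones 1 and 3 lay below the control, and clone 2 had 1 library on each side. The mean log2 change was -1.08 (SE 0.43, adjusted p = 0.392), while in TruSeq the log2 change of clone 1 was -0.01. With siRNA, XPC had 10.2 and 16.8 CPM, against 33.3 and 23.9 CPM in the siRNA control, without overlap (log2 change -1.10, SE 0.60, adjusted p = 0.824). DDB2 had 1.78 and 8.19 CPM in clone 1, 7.28 and 1.03 CPM in clone 2, 5.33 and 5.16 CPM in clone 3, and 16.6 and 4.96 CPM in the control (mean log2 change -1.17, SE 0.78, adjusted p = 0.647). With siRNA, DDB2 had 12.9 and 7.91 CPM, against 8.77 and 11.9 CPM in the siRNA control, a log2 change of 0.02. POLH, the third repair gene tested, had a mean log2 change of -0.75 (SE 0.80), so all 3 were below 0 in the mean of the clones and none passed.

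Of the metabolic genes, FDXR had 5.94 CPM and 0 counts in clone 1, 4.16 and 6.15 CPM in clone 2, 9.78 and 10.3 CPM in clone 3, and 2.21 and 1.24 CPM in the control. Clones 2 and 3 lay above the control, and the mean log2 change of 1.57 (SE 1.16) had an adjusted p of 0.688. In TruSeq clone 1, FDXR lay below its control. With siRNA it had 8.85 and 6.92 CPM, between the 6.14 and 12.6 CPM of the siRNA control. ABHD4 had 8.91 and 10.4 CPM in clone 1, 6.24 and 18.4 CPM in clone 2, 5.78 and 10.3 CPM in clone 3, and 11.1 and 6.202 CPM in the control. With siRNA it had 6.12 and 4.94 CPM, both below the 16.7 and 8.42 CPM of the siRNA control (log2 change -1.15, SE 0.81, adjusted p = 0.889). TIGAR had a mean log2 change of -0.60 (SE 0.32) and CMBL of -1.06 (SE 0.40, adjusted p = 0.369), and in each of the 3 clones both libraries lay below the control for both genes.

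RPS27L, a ribosomal protein paralogue that p53 induces, had the most PLATE-seq counts of the members, 7101 over the 12 libraries, and was the one with an unadjusted p under 0.05 for siRNA. It had 622.6 and 512.1 CPM with siRNA SMARCAL1, against 327.8 and 362.9 CPM in the siRNA control (log2 change 0.72, SE 0.28, adjusted p = 0.661). In the clones it had 242.9 to 470.6 CPM, against 487.7 and 421.7 CPM in the control. The difference between the knockout mean and the siRNA effect was -1.004 for RPS27L (SE 0.35) and did not pass (adjusted p = 0.466), and no member passed in that comparison, against 0% of all genes. At an unadjusted p under 0.05, RPS27L was the 1 member of 21, against 7.76% of all genes.

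**Figure D4:**
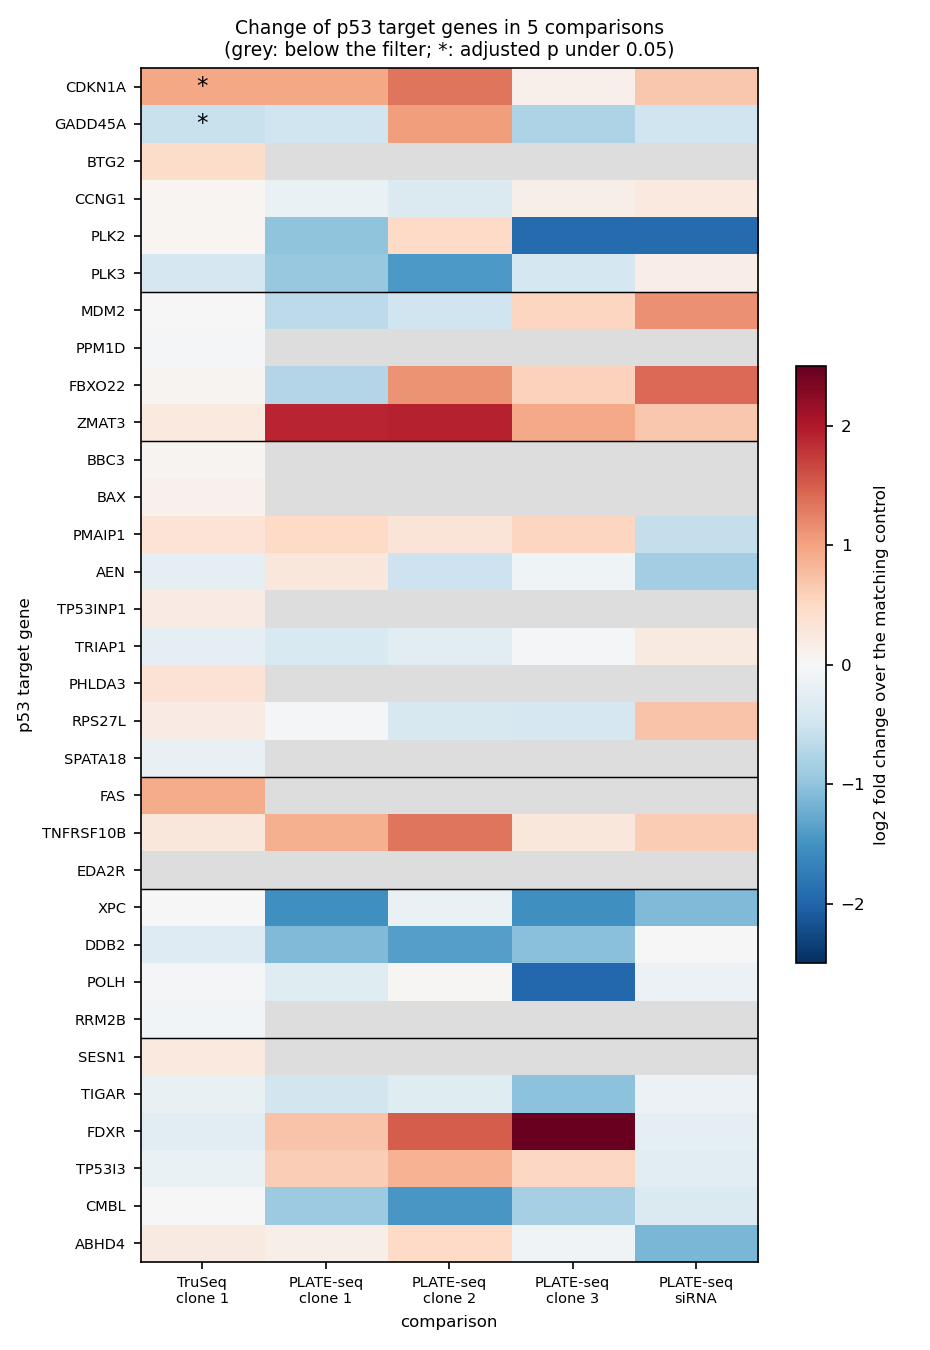
Fitted log2 fold changes of the 32 p53 target genes over the matching control in 5 comparisons, on a colour scale with red above 0 and blue below, ordered by role. Grey marks members below the filter and asterisks mark the calls, CDKN1A and GADD45A in TruSeq.

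The median log2 change of the members in PLATE-seq was -0.31 in clone 1, 0.02 in clone 2, -0.10 in clone 3 and -0.12 for the mean of the clones, against 0.0067, 0.0082, 0.0205 and -0.0064 over all genes tested. For siRNA it was -0.14 against -0.0152. The knockout libraries and those of the control did not overlap for 9 of 21 members in clone 1, 12 in clone 2 and 8 in clone 3, against 39.2%, 38.3% and 42% of all genes. The siRNA libraries and those of the siRNA control did not overlap for 9 members, against 37.4% of all genes. Clone 1 was measured in both assays, in libraries with separate controls. Of the 21 members tested in both, 13 had a fitted change of the same sign, 5 above and 8 below 0. Across these 21 genes, which are not independent, Pearson's r of the log2 changes was 0.47 and Spearman's rho 0.44, as a description.

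Other genes of the p53 pathway were counted from 3 further lists. Of 24 p53 regulators tested in TruSeq, which include kinases and cofactors, none passed, against 6.27% of all genes, and 6 had an unadjusted p under 0.05, against 20.4% of all genes. Their median log2 change was 0.04. Of 30 other p53 targets tested, 3 were higher in the knockout and none lower, against 3.96% and 2.31% of all genes. These were STEAP3, a ferrireductase, with 55.5, 66.0 and 64.4 CPM in the knockout against 42.8, 43.0 and 49.4 CPM in the control, ASCC3, a helicase (log2 change 0.26, adjusted p = 0.0335), and BTG1, an antiproliferative factor (log2 change 0.50, adjusted p = 0.0409). STEAP3 had a log2 change of 0.46 (SE 0.096, adjusted p = 0.0269). These 3 calls were not stable when single libraries were left out. ASCC3 lost its call without any 1 of the 6 libraries, BTG1 without any but knockout replicate 1, and STEAP3 without control replicate 1 or 2 or knockout replicate 2 or 3, with adjusted p up to 0.181, 0.159 and 0.178. Of 18 genes that p21 is known to repress through the DREAM complex, none passed in TruSeq, 9 had an unadjusted p under 0.05, against 20.4% of all genes, and the median log2 change was -0.19. In PLATE-seq 17 of them were tested, none passed, and the median log2 change was 0.0262 in clone 1, 0.18 in clone 2, 0.0019 in clone 3 and -0.0446 for siRNA. In PLATE-seq, clone 3 had 1 gene higher and 1 lower among 22 other p53 targets tested, against 0.663% of all genes in either direction. TP53I11 had 57.8 and 50.7 CPM in clone 3, against 7.74 and 11.2 CPM in the control (log2 change 2.52, SE 0.54, adjusted p = 0.0318). TNFRSF10A, which encodes the TRAIL receptor DR4, had 39.6 and 41.3 CPM in clone 3, against 117.2 and 114.1 CPM in the control (log2 change -1.51, SE 0.33, adjusted p = 0.0334). TP53I11 lost its call without either control library or clone 3 replicate 2 (adjusted p up to 0.22), and TNFRSF10A without any 1 of the 4 libraries (up to 0.276). Neither gene passed in the other comparisons. TP53I11 had log2 changes of 1.87 in clone 1, 2.31 in clone 2 and 1.67 for siRNA (adjusted p = 0.296, 0.105 and 0.401), and TNFRSF10A of -0.91, -0.42 and -0.61 (adjusted p = 0.457, 0.721 and 0.824). In TruSeq clone 1 the log2 changes were 0.25 for TP53I11 and -0.08 for TNFRSF10A.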

How the data were processed

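The authors deposited raw read counts per gene symbol, 1 table for each assay. Per the submitters' processing notes the reads were handled with STAR and HTSeq on hg38. Versions, annotation release and strand setting are not given in the sources used here. The TruSeq table held 57120 entries and the one of PLATE-seq 44359 entries, among them 92 spike-ins that entered no library size and no test (at most 0.0534% of a library's counts). Each assay was fitted whole with edgeR 4.0.16 in R 4.3.3, with filterByExpr, TMM, group as the only term, the quasi-likelihood F test, and Benjamini-Hochberg adjustment over all genes tested at 0.05. The residual degrees of freedom were 4 in TruSeq and 6 in PLATE-seq, and the biological coefficients of variation 0.123 and 0.33. Tests were two-sided, and standard errors are the log2 change over the square root of F. Alternatives were DESeq2 1.42.0, RLE size factors, no filter, a replicate block, the side in detected features, the siRNA control as the control of the clones, 2-group fits and leaving out each library. Replicates differed by more than counting noise (chi-square per degree of freedom 5.71 to 24.7). Coordinates come from GENCODE on GRCh38, 1-based, by symbol, and promoter sequences from RefSeq.

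The members and lists were chosen with earlier results of these data known. Values in every library are given for CDKN1A, MDM2, BBC3, BAX and GADD45A, for members past the threshold, and for the 2 highest and 2 lowest changes in TruSeq, the clone mean and siRNA, with the 2 smallest p among clones. SMARCAL1 and genes of other lists past the threshold were named too, and some listed genes are not reported here. RPS27L, PMAIP1, TNFRSF10B, TIGAR and CMBL were described further after their values were seen.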

Additional observations from a re-analysis of the deposited data

Results flagged for a closer look

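GADD45A in PLATE-seq differed among knockout clones 1, 2 and 3 by an F test of the difference itself (edgeR adjusted p = 0.0432), with log2 changes of -0.50, 1.04 and -0.77 against the control they share. Its 2 libraries in clone 2, at 54.1 and 143.4 CPM, lay far apart. Without the second of them the adjusted p was 0.697. Single outlying libraries were not tested for, since no group had more than 3 libraries.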

How the results depend on the processing

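The 2 calls in TruSeq, CDKN1A and GADD45A, were kept in DESeq2, which called 3 members with PMAIP1 added, and with RLE size factors. The count of members past the threshold was 4 with no filter on low counts and 8 with the side in detected features as a term. With that term the count over all genes rose as well. The TruSeq shares of all genes under DESeq2 and without the filter are not given here. These larger counts are therefore not read as a result about the members. Fits were also run within the sides with more and with fewer features, a choice made after seeing the data. With 3 libraries each and 1 in an arm, only their effect sizes are given. Leaving out single libraries gave 1 to 2 members past the threshold, and 1 was left without control replicate 2. The labels do not say whether replicate numbers mark a shared batch. Same-numbered deviations correlated at -0.273 to 0.575 in TruSeq and -0.0579 to 0.0556 in PLATE-seq. Not every library correlated best with its own number. With 2 libraries a group the PLATE-seq deviations mirror each other, and TruSeq had 3 libraries a group. These correlations therefore cannot decide whether the libraries are paired. With the replicate block, 6 members passed in TruSeq (2387 genes in all, against 1089), and 0 among clones. GADD45A among clones was kept in DESeq2 (adjusted p = 0.00683), with RLE (0.0399) and without the filter (0.00288). It was lost with the block (0.0689), and leaving out single libraries gave 0 to 1 members. No member passed in the other PLATE-seq comparisons under any alternative run. Where an omission left 1 library in a group, the fit assumed that it varies like the other groups.

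Median log2 changes of the members moved by more than the spread between replicates as follows. In TruSeq the median was 0.0168 with the side as a term, 0.0692 within the side with more features, and 0.0077 to 0.0503 over single libraries left out. In clone 1 it was -0.0124 without the filter, -0.20 with the block, -0.19 with the siRNA control in its place and -0.17 in a 2-group fit (-0.32 to 0.0506 over omissions). In clone 2 it was 0.26 with the siRNA control and -0.081 in a 2-group fit (-0.17 to 0.81). In clone 3 it was -0.20 with the siRNA control (-0.40 to 0.0355). Over omissions it was -0.30 to -0.0167 for the clone mean and -0.39 to 0.22 for siRNA. For the knockout mean minus siRNA it was 0.46 without the filter (-0.24 to 0.17). The causes were not tested.

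The count of all genes past the threshold in TruSeq was 199 to 1145 over omissions and 3793 with the side as a term. DESeq2 called 22 genes in clone 1, 34 in clone 2, 121 in clone 3, 52 for the mean, 13 for siRNA, 19 for the difference from siRNA and 148 among clones. The edgeR counts were 0, 3, 57, 17, 0, 0 and 61. Without the filter edgeR called 36, 61, 156, 83, 22, 44 and 230. PLATE-seq depth left 11 members untested.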
